A study of Homo sapiens with 8 samples.

Results

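Native RNA of 3 human cell lines was read by Oxford Nanopore direct RNA sequencing, and the reads were assigned to transcript models with TALON, a program that compares each read with the annotation. The models described here are the incomplete splice matches of subtype Prefix: their introns match the first introns of an annotated transcript in order, and the last exon or exons of that transcript are missing. All models carrying both labels in the deposited tables were taken. They numbered 27177 of 506946 models, of which 8579 had at least 1 read in these libraries and 18598 had none. Together the models with reads held 16629 of 1910686 reads. GM12878 is a B-lymphoblastoid line (3 libraries), HepG2 a hepatocellular carcinoma line (3 libraries) and K562 an erythroleukaemia line (2 libraries), all untreated as far as the labels say. The labels call K562 a lymphoblastoid line as well. Its libraries held 15579 globin reads, against 0 in GM12878 and 11 in HepG2. The labels do not say whether the libraries of a line came from separate cultures, so a p-value here measures the spread between libraries, which may be technical.

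The 3′ end of most messenger RNAs is made by cleavage of the growing transcript and addition of a poly(A) tail, directed by the CPSF, CSTF and CFI complexes at a poly(A) signal. A transcript can also be cleaved early, inside an intron or an internal exon, and U1 snRNP bound to splice donors is known to hold such early cleavage back. Immunoglobulin heavy-chain genes are the textbook case, where the choice of a poly(A) site sets the secreted or the membrane form. In direct RNA sequencing the motor protein is loaded at the poly(A) tail and the molecule is read from its 3′ end, so the exons that Prefix models lack are those nearest to where reading starts. What produced a given Prefix read was not tested.

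The exon borders at which 6 well-read Prefix models would leave their annotated transcript are shown. They were placed by exon number, assuming the annotated start, so they do not show at which base the reads ended. Each line gives 5′ to 3′ the last 30 coding bases of the last matched exon in lower case and the first 30 coding bases of the first missing exon in capitals, from GENCODE release 29 transcripts on GRCh38. All candidate transcripts of these genes shared the same intron chain up to the border.
CALR, 8 of 9 exons: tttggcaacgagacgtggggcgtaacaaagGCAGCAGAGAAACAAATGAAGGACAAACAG
APOH, 7 of 8 exons: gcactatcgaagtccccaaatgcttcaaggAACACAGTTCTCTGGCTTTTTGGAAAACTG
NUDC, 8 of 9 exons: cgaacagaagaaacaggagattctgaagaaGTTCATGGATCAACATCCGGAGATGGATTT
ANP32B, 5 of 7 exons: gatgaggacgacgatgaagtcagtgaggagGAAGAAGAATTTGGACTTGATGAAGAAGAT
LRRC59, 4 of 7 exons: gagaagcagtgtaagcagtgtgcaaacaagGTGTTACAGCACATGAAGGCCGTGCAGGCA
EEF2, 4 of 15 exons: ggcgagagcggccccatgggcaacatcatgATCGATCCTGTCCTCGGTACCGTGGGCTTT
The last matched exon of CALR, the endoplasmic reticulum chaperone calreticulin, is chr19:12943537-12943629 on the plus strand, and the missing exon is chr19:12943713-12944489. For APOH, a plasma lipid-binding glycoprotein, they are chr17:66214453-66214650 and chr17:66212033-66212188 on the minus strand. For NUDC, a dynein-associated co-chaperone, they are chr1:26945568-26945686 and chr1:26946130-26946862 on the plus strand. For ANP32B, a nuclear acidic histone chaperone, they are chr9:98011271-98011389 and chr9:98012421-98012472 on the plus strand. For LRRC59, a membrane protein of the endoplasmic reticulum, they are chr17:50392398-50392502 and chr17:50388060-50388132 on the minus strand. For EEF2, the elongation factor that moves the ribosome along the message, they are chr19:3982807-3983018 and chr19:3982246-3982424 on the minus strand. In CALR, APOH, NUDC and ANP32B the model was exactly as long as the sum of the matched exons, whereas the LRRC59 model was shorter by 49 bases and the EEF2 model by 6. Coding sequence beyond the border came to 198 of 1251 bases in CALR, 53 of 1035 in APOH, 49 of 993 in NUDC, 117 of 753 in ANP32B, 492 of 921 in LRRC59 and 1962 of 2574 in EEF2.

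Library totals ran from 70374 to 461497 reads, and Prefix reads from 670 to 3846 per library. The 5 hepatocyte markers held 77221 reads in HepG2 and 4 in the other lines, and the 5 B-lymphoblastoid markers held 4359 reads in GM12878, 198 in HepG2 and 1 in K562. Markers of T cells, fibroblasts and monocytes held 12, 9 and 14 reads in all 8 libraries. A chi-square test of replicate counts gave 3.53 per degree of freedom for the K562 pair and 1.23 to 2.22 for the pairs of the other lines.

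Prefix reads were spread thinly over many models. A single read supported 6803 of the 8579 models with reads, or 79.3%, while 154 models with at least 10 reads held 29.3% of the reads. Models were seen in 1 line in 7652 cases, in 2 lines in 687 and in 3 lines in 240. There were 26 models with reads in all 8 libraries, and these held 2352 reads. At an equal 670 Prefix reads, a library was expected to show 493 to 552 models from 388 to 451 genes. Annotated genes with Prefix reads numbered 3939 of 17404 with any read, and the 10 genes with most of them held 14.8% of all Prefix reads. Protein-coding genes held 97.3% of the Prefix reads and 95.7% of all reads of annotated genes. Processed pseudogenes, which are mostly single-exon copies, held 1 Prefix read against 42398 reads in all.

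The models were mostly short chains of exons. Of the Prefix reads, 12.2% had 2 exons, 16.6% had 3, 15.5% had 4, 16.0% had 5 and 39.6% had 6 or more. The longest chain was a 41-exon model of UBR4, a large ubiquitin ligase, and the longest model was 6859 bases, from LSS, the lanosterol synthase of cholesterol synthesis. The median model length was 862 bases. The plot of exon number by line shows the same range in each line, with 10.7% of HepG2 reads in models of 12 or more exons against 5.50% in GM12878 and 6.77% in K562, pooled over the libraries of a line.

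**Figure D1:**
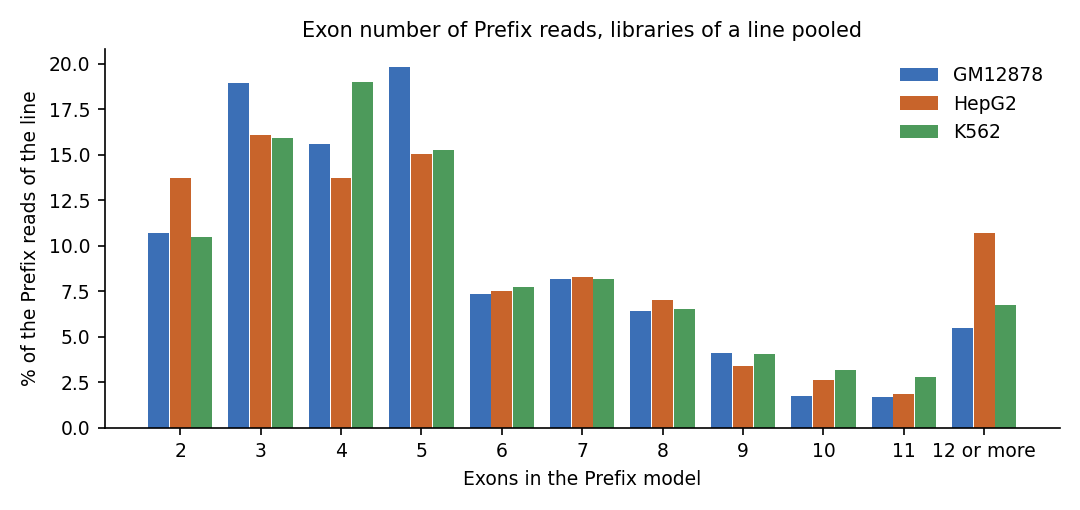
Share of Prefix reads (vertical axis, % of the line's Prefix reads, libraries pooled) by the number of exons in the model (horizontal axis); bars are coloured by line. Models of 3 to 5 exons are the commonest in each line, and HepG2 has the highest share at 12 or more exons.

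The deposited tables give a model's exon number and length but not its coordinates, so each Prefix model was laid on the annotated transcripts of its gene that have more exons. Its length was then compared with the summed length of as many of their first exons. This placed 8494 models with 16478 reads. The other 85 models, with 151 reads, had no annotated transcript of their gene with more exons, so no missing exon could be shown for them. The last exon alone was missing in 31.0% of placed reads, 2 exons in 14.3%, 3 exons in 10.6%, and 4 or more in 44.2%, against the candidate with the most known reads. Length matched an annotated exon end within 2 bases for some candidate in 24.1% of reads, exceeded every candidate by more than 50 bases in 11.1%, and was below every candidate in 23.4%. The other 41.4% lay between candidates or passed every candidate by no more than 50 bases. A model that began downstream of the annotated start would be short by the same measure, so a short length does not say at which end the bases were lost.

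For 1681 models, with 3604 reads, the candidates all had the same introns and border, though their annotated starts could differ. The lengths below thus still depend in part on the candidate used. A 13-exon AFP model was 84 bases short of its best-read candidate but matched another within 2 bases. Of the 1681 models, 344 ended within 2 bases of the summed exon length, 906 were shorter and 327 were longer by more than 50 bases. The longer models passed the border by a median of 380 bases, into sequence annotated as intron for the candidates if the start was the annotated one. In the plot of model length against matched exons, whose bins differ in width, 819 reads fall within 2 bases of the border. Another 205 lie 3 to 10 bases and 830 lie 11 to 50 bases below it, the latter including 146 reads of an ALB model, 110 of an RPLP1 model and 72 of an LRRC59 model. Lengths of consecutive models of the same parent transcript differed by exactly the added exon, within 2 bases, in 62 of 286 pairs (21.7%). LRRC59 was such a case: models of 3, 4 and 5 exons measured 511, 616 and 689 bases, and the added exons are 105 and 73 bases long. All 3 were 49 bases shorter than their matched exons.

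**Figure D2:**
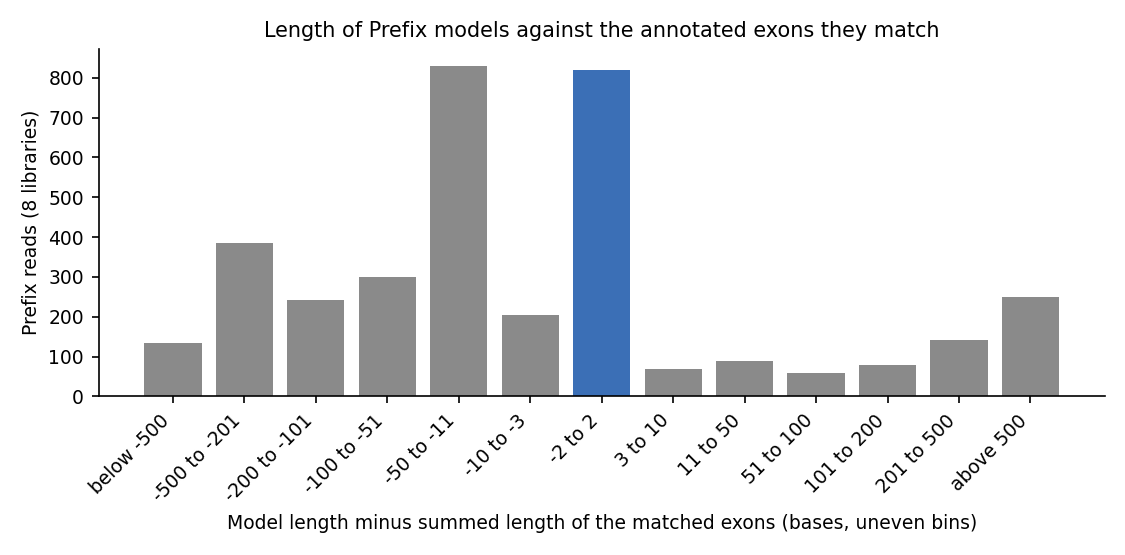
Prefix reads over the 8 libraries (vertical axis) by model length minus the summed length of matched exons in bases (horizontal axis, bins of unequal width). Shown are the 1681 models whose candidates share introns and border, though their annotated starts can differ. The blue bar marks lengths within 2 bases of the border (819 reads). The bin 11 to 50 bases below it holds 830 reads over a wider range of lengths.

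For most of these models the border lay inside the parent's coding sequence. Prefix models lack at least the last exon by definition, so this follows in large part from the class wherever coding sequence reaches the last exon. Of 1579 with a protein-coding parent, the matched exons ended inside the coding sequence in 1524, which held 92.5% of their 3396 reads. They held all of the coding sequence in 49 models with 7.30% of the reads, and ended before it in 6 models with 7 reads. Last matched exons had a stretch of 20 bases with at least 12 adenines anywhere in the exon in 12.3% of 1681 models, and other internal exons of the same transcripts in 11.8% of 8500. This describes the exons, since the base at which a model ends is not known. Intron sequence was not analysed here.

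Ribosomal protein genes, whose products build the ribosome, supplied several of the most-read models. RPS19 (chr19:41859918-41872926, plus strand) had the most, a 5-exon model of 446 bases with 379 reads. RPS19 Prefix reads numbered 71, 92 and 35 of 814, 1067 and 377 gene reads in the GM12878 libraries, 70, 73 and 72 of 2266, 1092 and 1908 in HepG2, and 35 and 56 of 598 and 1474 in K562. Pooled by line this was 8.77% of RPS19 reads in GM12878 (95% Wilson interval 7.67 to 10.01), 4.08% in HepG2 (3.58 to 4.65) and 4.39% in K562 (3.59 to 5.36), so GM12878 was the highest. Such intervals cover counting error only. In edgeR's test of this share between libraries, described below, the adjusted p was 0.0873 for HepG2 against GM12878 and 0.999 for K562 against GM12878. RPS13 (chr11:17074389-17077787, minus strand) gave a 5-exon model of 448 bases with 241 reads. RPS13 Prefix reads were 32, 46 and 20 of 271, 320 and 116 in GM12878, 46, 15 and 28 of 629, 295 and 506 in HepG2, and 42 and 59 of 259 and 642 in K562. HepG2 had the lowest RPS13 share, at 6.22% (5.09 to 7.60) against 13.9% (11.5 to 16.6) in GM12878 and 11.2% (9.31 to 13.4) in K562. RPL27 had a 3-exon model with 115 reads, RPLP1 a 3-exon model with 110, RPS12 a 5-exon model with 94 and RPL3 an 8-exon model with 78. Each of these models lacked 1 exon of its best-read longer transcript. Ribosomal protein genes have many processed pseudogenes, so reads can be shared with copies.

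Over the 86 ribosomal protein genes, 50 had Prefix reads, 2436 in all, and the spread between genes was wide. Prefix reads made up 1.15% of RPLP1 reads, 0.526% of RPS6, 0.414% of RPL31 and 0.146% of RPS2, against 9.48% of RPS13. By library the list's share was 0.768, 0.896 and 1.13% in GM12878, 0.467, 0.741 and 0.492% in HepG2, and 0.720 and 0.493% in K562. The 3 GM12878 libraries lay above the libraries of the other lines, but without RPS19 and RPS13 the shares overlapped, at 0.464, 0.574 and 0.789%, 0.342, 0.553 and 0.340%, and 0.495 and 0.365%. Over all annotated genes the same share was 0.838% ± 0.116 (SD, n = 3), 0.862% ± 0.0825 (SD, n = 3) and 0.981% ± 0.00632 (SD, n = 2) in the 3 lines in that order. Of 20 translation factor genes, 17 had Prefix reads, at 0.273, 0.342 and 0.366% of the list's reads in GM12878, 0.403, 0.481 and 0.401% in HepG2, and 0.425 and 0.678% in K562. RACK1 (chr5:181236909-181248096, minus strand), a scaffold protein of the small ribosomal subunit that is counted in the ribosomal protein list, had a 7-exon model of 994 bases with 316 reads. RACK1 shares were 7.21% (5.90 to 8.78) in GM12878, 6.16% (5.41 to 7.01) in HepG2 and 5.86% (4.88 to 7.03) in K562, with overlapping intervals.

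In a few genes Prefix reads were a large part of the output. These genes were picked out after their values were seen. Among 4943 genes with at least 50 reads, 53 had a Prefix share of at least 10%, and the median share was 0.0318%. MKKS (chr20:10401009-10434222, minus strand), which encodes a chaperonin-like protein of the basal body, was the only gene above 50%, with 86 of 156 reads (55.1%, 47.3 to 62.7). Its Prefix reads were 4 of 6, 12 of 17 and 7 of 10 in GM12878, 17 of 40, 12 of 20 and 14 of 32 in HepG2, and 7 of 13 and 13 of 18 in K562. Prefix reads thus outnumbered the gene's other reads in 6 of 8 libraries, the exceptions being HepG2 replicates 1 and 3. A 3-exon model of 758 bases held 85 of the 86 reads. In MKKS-201, the 6-exon parent, coding sequence begins at base 764, and exon 3 runs on for 990 bases beyond the model's length if both begin at the same base. Shorter MKKS transcripts that end in the leader and carry upstream open reading frames have been described.

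ANP32B had a Prefix share of 25.7% (22.9 to 28.7), with 27, 24 and 15 of 96, 117 and 58 reads in GM12878, 27, 22 and 8 of 83, 61 and 46 in HepG2, and 38 and 63 of 148 and 262 in K562. The lines did not stand apart in this share, at 24.4% in GM12878 (19.6 to 29.8) and 24.6% in K562 (20.7 to 29.03), with 57 of 190 reads in HepG2 (23.9 to 36.9%). A 4-exon model of 712 bases held 151 of its reads and a 5-exon model of 831 bases held 42, and both were as long as the matched exons of ANP32B-201. LRRC59 had 1, 6 and 3 Prefix reads of 23, 36 and 21 in GM12878, 34, 27 and 29 of 169, 93 and 112 in HepG2, and 6 and 22 of 65 and 134 in K562. Its pooled share was 24.1% (20.01 to 28.7) in HepG2, above 14.1% (9.92 to 19.6) in K562 and 12.5% (6.93 to 21.5) in GM12878, where the last interval overlaps that of HepG2. In edgeR's test of usage between libraries, described below, this did not pass. The adjusted p was 0.653 for HepG2 against GM12878 and 0.834 for K562 against HepG2. Others with a share above 10% were PPM1G, a nuclear protein phosphatase, at 15.0% (12.1 to 18.5), NOP53, a ribosome biogenesis factor, at 14.8% (12.1 to 18.1), and MAZ, a zinc finger factor, at 13.7% of 350 reads. SNRNP70, which encodes the U1-70K protein of U1 snRNP, stood at 14.3% (9.79 to 20.4) of 168 reads. PSMB3, a proteasome subunit, had 112 Prefix reads of 997 (11.2%), of which 104 came from a 5-exon model lacking the last exon. PMS2P1, at 33.8% (24.4 to 44.6) of 80 reads, is a pseudogene with near-identical copies, so its assignment is uncertain.

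**Figure D3:**
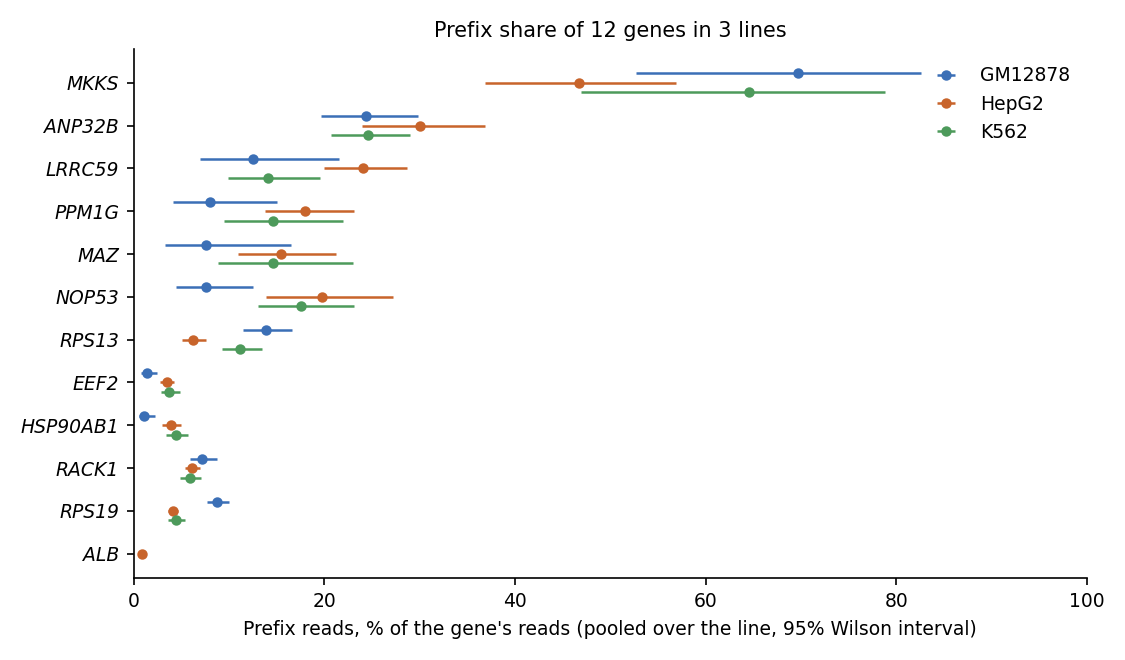
Prefix reads as a percentage of the gene's reads (horizontal axis) for 12 genes (vertical axis), pooled over the libraries of each line, with 95% Wilson intervals as bars; lines with fewer than 10 reads of the gene are not drawn. MKKS and ANP32B have the highest shares among these genes in each line, and ALB, drawn for HepG2 alone, is near 1%.

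Liver secretory genes gave many Prefix models in HepG2 at a low share of their output. ALB (chr4:73397114-73421412, plus strand), the plasma protein albumin, had 103, 103 and 41 Prefix reads of 13139, 6792 and 8515 in the HepG2 libraries, or 0.868% (0.767 to 0.983), and none elsewhere. A 14-exon model of 1926 bases held 146 of them. The coding sequence of ALB-201 ends at base 1916, so the missing 15th exon is untranslated. AFP, the fetal counterpart of albumin, had 106 Prefix reads of 14788 (0.717%). SERPINA1, the plasma protease inhibitor alpha-1 antitrypsin, had 65 of 23067 (0.282%). A2M, the protease inhibitor alpha-2-macroglobulin, had 165 Prefix reads of 9674 (1.71%) spread over 112 models, the most of any gene. C3, the central complement component, had 105 of 2366 HepG2 reads (4.44%, 3.68 to 5.34), a higher share than ALB, AFP, A2M or SERPINA1 with intervals that do not overlap. Of 26 hepatocyte secreted protein genes 19 had Prefix reads, and the list's share was 0.771, 0.990 and 0.615% in the 3 HepG2 libraries. DHRS2, a mitochondrial reductase, stood out with 46, 44 and 38 of 575, 371 and 438 reads in HepG2 (9.25%, 7.83 to 10.9), in models of 2 and 3 exons.

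The globin genes of K562 were at the other end. They held 15579 K562 reads, of which 3 were Prefix reads, a share of 0.0349% in replicate 1 and 0.0102% in replicate 2. Globin transcripts have few exons. Glycolysis genes had Prefix shares of 0.277, 0.184 and 0.360% in GM12878, 0.389, 0.527 and 0.336% in HepG2, and 0.850 and 0.644% in K562. Both K562 libraries were the highest, as they also were over all annotated genes (0.977 and 0.985%). Without GAPDH and HK1, which had 11 and 15 of the 50 K562 Prefix reads, the lines overlapped, at 0.405, 0.288 and 0.501%, 0.350, 0.669 and 0.310%, and 0.415 and 0.471%. GAPDH, the abundant glycolytic dehydrogenase, had 33 Prefix reads of 9560 and ENO1, an enolase, 44 of 5737. Proteasome and chaperone genes had 0.247, 0.414 and 0.735% in GM12878, 1.07, 2.10 and 1.38% in HepG2, and 0.939 and 2.29% in K562. Each HepG2 and K562 library lay above those of GM12878, but HSP90AB1 held 60 of the 111 HepG2 and 52 of the 82 K562 Prefix reads. Without it the lines overlapped, at 0, 0.310 and 0.718%, 0.651, 1.54 and 0.512%, and 0.654 and 0.997%.

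Models longer than their matched exons are those in which the last exon would run on into sequence annotated as intron. In all, 1173 models with 1826 reads passed every candidate by more than 50 bases. The best read was a 2-exon LMNA model of 2404 bases with 39 reads, 1642 bases past the longest candidate. LMNA encodes lamins A and C of the nuclear envelope. Its reads in this model were 0, 1 and 0 in GM12878, 7, 4 and 12 in HepG2, and 1 and 14 in K562, so GM12878 was lowest. AHSG, the plasma protein fetuin-A, had a 2-exon model with 23 reads at 477 bases past its border and a 5-exon model with 22 reads at 514 bases past. CLIC1, an intracellular chloride channel protein, had a 5-exon model with 20 reads that passed every candidate by at least 437 bases. The 15-exon A2M model of 2816 bases, with 16 reads, passed its border by 657 bases. Noncoding genes were among them: PIK3CD-AS2 had 28 of 33 reads in a 2-exon model 979 bases past, and JPX, a long noncoding RNA of the X-inactivation center, had 17 of 37 in a 3-exon model at least 893 bases past. PIK3CD-AS2 lies antisense to another gene, and the sources used here do not say whether strand was used in assigning its reads.

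Genes known for intronic polyadenylation were read from a list of 22. Of these, 18 had reads and 8 had Prefix reads, 44 of 1628 in all. IGHM (chr14:105851705-105856218, minus strand), the immunoglobulin mu heavy-chain constant gene, had 26. They were 9, 13 and 4 of 424, 492 and 223 reads in GM12878 (2.28%, 1.56 to 3.32), with no IGHM read in the other lines. A 5-exon IGHM model of 2182 bases held 15 of the 26, with 4, 8 and 3 in the 3 libraries. It was 766 bases longer than the first 5 exons of IGHM-202, a 6-exon transcript. Those 5 exons span 1416 bases, and the coding sequence of IGHM-202 ends at base 1422. IGHM-201, which has 4 exons, had 266 reads as a known model. A 6-exon IGHM model held 8 of the 26 reads, and no annotated IGHM transcript has more exons. Which form of the protein these reads belong to was not tested. IGHD, the delta heavy-chain constant gene, had a 5-exon model of 1126 bases with 6 reads, equal to the first 5 exons of IGHD-202. CSTF3, a cleavage stimulation factor subunit, had 1 Prefix read and DICER1, the microRNA-processing nuclease, had 2. At 44 reads the list is too thin for a comparison between lines.

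The overall Prefix share did not differ between the lines beyond the spread of their libraries. It was 0.724, 0.825 and 0.952% of reads in GM12878, 0.833, 0.947 and 0.790% in HepG2, and 0.978 and 0.982% in K562. Both K562 libraries were the highest, but the spread within the other lines was as wide as the gap, and an exact permutation test over the 560 assignments of libraries to lines gave p = 0.271 (adjusted p = 0.362 over 12 tests). The smallest p this design can give is 0.00357. With ribosomal protein genes left out the same exact permutation test, taken jointly over the 3 lines, gave p = 0.0179, unadjusted. There K562 exceeded GM12878 by 0.301 percentage points, but the joint test does not judge a gap between 2 of the lines. At equal weight per gene, over the 466 genes that reached 20 reads in all libraries, the share was 0.760% ± 0.0755 (SD, n = 3) in GM12878, 0.780% ± 0.0616 (SD, n = 3) in HepG2 and 0.841% ± 0.0281 (SD, n = 2) in K562, with an exact permutation p of 0.382.

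Set against incomplete splice match reads, rather than all reads, the Prefix share differed between lines. Prefix reads were 4.61% ± 0.632 (SD, n = 3) of these reads in GM12878, 3.27% ± 0.295 (SD, n = 3) in HepG2 and 5.41% ± 0.156 (SD, n = 2) in K562. Libraries ranged from 3.97 to 5.23%, from 2.94 to 3.50% and from 5.30 to 5.52%, so the ranges did not overlap (exact permutation p = 0.0107, adjusted p = 0.0257). The denominator differed too: Suffix reads, which lack the 5′ end, were 20.5, 22.2 and 22.4% of all reads in the HepG2 libraries, against 14.3 to 14.7% in GM12878 and 14.1 and 14.9% in K562. The lower HepG2 value thus goes with more Suffix reads, and the Prefix share of all reads did not pass the test. The exact permutation p was 0.0714 with either K562 library left out. The plot of Prefix shares by line shows this measure beside the share of all reads.

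**Figure D4:**
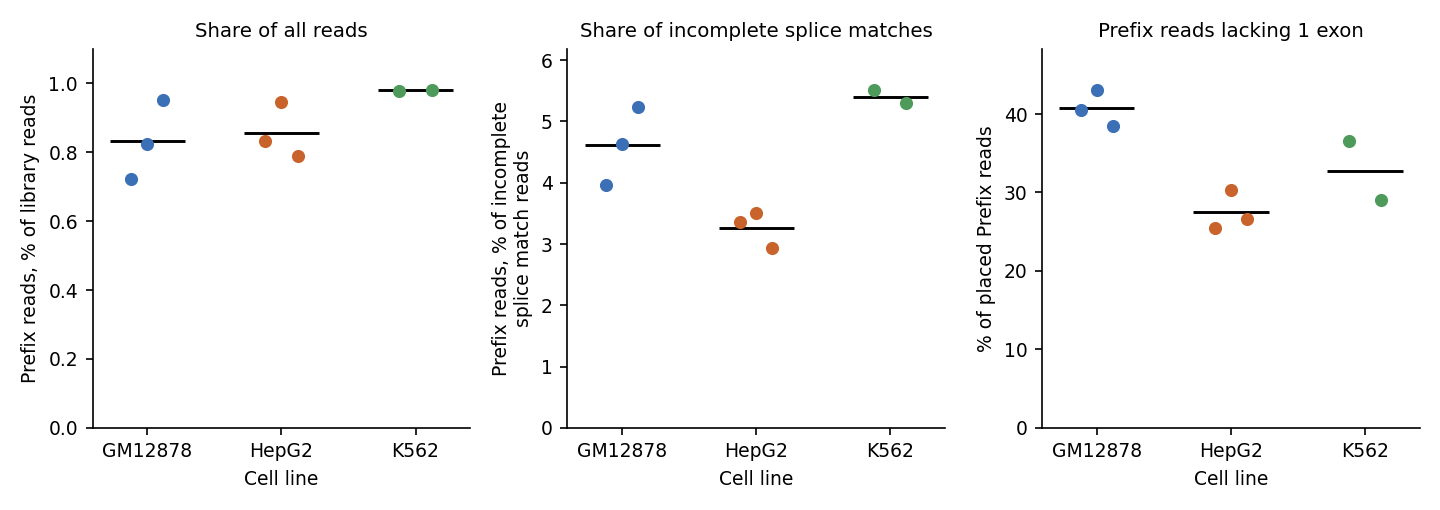
Prefix reads per library as a percentage of all reads (left), of incomplete splice match reads (middle), and the percentage of placed Prefix reads that lack 1 exon of the best-read longer candidate (right), by cell line; points are libraries and bars are line means, with vertical axes from 0. HepG2 libraries are the lowest in the middle panel, at 2.94 to 3.50%, and GM12878 libraries are the highest in the right panel, at 38.5 to 43.1%.

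Prefix reads also differed in length between lines. The median model length over Prefix reads was 711 ± 1.73 bases (SD, n = 3) in GM12878, 809 ± 12.2 (SD, n = 3) in HepG2 and 746 ± 47.4 (SD, n = 2) in K562, with an exact permutation p of 0.0107 (adjusted p = 0.0257). HepG2 libraries, at 798 to 822 bases, lay above all libraries of GM12878, at 709 to 712, and of K562, at 712 and 779. Mean exon number followed the same order, at 5.48 ± 0.147 (SD, n = 3), 6.01 ± 0.133 (SD, n = 3) and 5.73 ± 0.166 (SD, n = 2) in GM12878, HepG2 and K562 (exact permutation p = 0.0250, adjusted p = 0.0429). The share of placed Prefix reads lacking 1 exon was 40.7% ± 2.31 (SD, n = 3) in GM12878, 27.5% ± 2.58 (SD, n = 3) in HepG2 and 32.8% ± 5.35 (SD, n = 2) in K562 (exact permutation p = 0.0143, adjusted p = 0.0286). Exons were counted against the best-read longer candidate, without comparing introns. Only 3604 of the 16478 placed reads had candidates that all shared introns and border, so the number missing is uncertain for the rest. Reads matching an exon end of some candidate were most frequent in K562, at 27.4% ± 1.49 (SD, n = 2). They made up 23.1% ± 1.08 (SD, n = 3) in GM12878 and 22.9% ± 0.291 (SD, n = 3) in HepG2 (exact permutation p = 0.0286, adjusted p = 0.0429). A gene with more candidates offers more lengths to match, and how often lengths match by chance was not measured. Relative to the best-read known model of the gene, median length was 52.4% ± 4.11 (SD, n = 3), 48.5% ± 0.207 (SD, n = 3) and 51.5% ± 4.51 (SD, n = 2), which did not pass the exact permutation test (p = 0.475). Neither did the share past every candidate, at 11.3, 11.4 and 10.2% on average (exact permutation p = 0.368). Gene makeup differs between the lines, and its part in these differences was not tested.

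Prefix reads were set against Suffix reads of the same libraries, the class that lacks the other end. Suffix reads were far more frequent, at 17.2% ± 3.78 (SD, n = 8) of reads against 0.879% ± 0.0981 (SD, n = 8) for Prefix reads. The median length of Prefix models was below that of Suffix models by 166 ± 70.4 bases (SD, n = 8), while their mean exon number was above by 0.598 ± 0.367 (SD, n = 8). Each difference had the same direction in 8 of 8 libraries, and each gave the smallest p that an exact sign-flip test allows, 0.0078125 (adjusted p = 0.0257).

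For levels between lines, reads of each gene were summed by class of model and 4906 such sums were tested together with edgeR's quasi-likelihood test. A sum was called at an adjusted p under 0.05 and a change of at least 2-fold. Prefix reads of 36 of 3939 genes passed the filter on low counts, so the counts below say nothing of the other genes. HepG2 against GM12878 gave 26 calls, 17 higher and 9 lower in HepG2, or 72.2% of the 36, beside a background of 49.7% over all sums tested (30.1% higher and 19.6% lower). A filter that a gene can pass through its higher line alone favours such calls, and 15 of the 26 had no Prefix read in the other line.

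The genes called higher in HepG2 with the largest bounds had no Prefix read in GM12878 and passed the filter through HepG2 alone. Prefix reads of ALB were at 307.6 CPM (reads scaled to a common library size) in HepG2, the mean of normalised libraries, and at 0 reads in GM12878, which makes them at least 45.1-fold higher when GM12878 is set at a floor of 3 reads over the line. By the same measure A2M was at least 27.8-fold higher, DHRS2 at least 23.0-fold, C3 at least 18.5-fold, APOH at least 18.2-fold and AFP at least 17.6-fold. Adjusted p-values of these 6 genes in edgeR's quasi-likelihood test ran from 1.77e-10 for A2M to 1.04e-05 for ALB. As the genes entered the test through the line where they are high, these p-values are no separate support for a difference. On the other side, Prefix reads of IGHM and of HLA-DRB1, an MHC class II chain, were at 0 in HepG2 and at 57.0 and 52.9 CPM in GM12878, at least 16.4-fold and 15.3-fold lower in HepG2. The known models of IGHM, HLA-DRB1, ALB, A2M, C3, APOH and AFP differed in the same direction. Of the 20 called genes with a tested sum of known models, 15 were called in the same direction for the known models and 3 had the opposite sign.

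Some called genes had known models that were not called in the same direction. HSP90AB1 encodes the constitutive cytosolic HSP90 chaperone. Its Prefix reads were 4, 3 and 1 in GM12878, 18, 17 and 25 in HepG2, and 8 and 44 in K562. They were higher in HepG2 than in GM12878 by a log2 change of 1.94 ± 0.556 (SE), with an adjusted p of 0.00309 in edgeR's quasi-likelihood test, while its known models were lower with a log2 change of -1.39 and an adjusted p of 0.000124. Over all its reads HSP90AB1 had a log2 change of 0.13, with an adjusted p of 0.551 in edgeR's quasi-likelihood test of whole genes. The Prefix share of HSP90AB1 reads shifted by 2.75 percentage points, at an adjusted p of 0.115 in edgeR's test of usage. EEF2 Prefix reads were 7, 5 and 0 in GM12878, 35, 29 and 21 in HepG2, and 9 and 49 in K562. The EEF2 change between HepG2 and GM12878 was 1.88 ± 0.515 (SE, log2) with an adjusted p of 0.00217, and the known models of EEF2 changed by -0.22 with an adjusted p of 0.472. RPS13 was lower in HepG2 by a log2 change of -1.15 ± 0.291 (SE, adjusted p = 0.000856), with known models at 0.29 and an adjusted p of 0.239. RPS14 and RPL5, both ribosomal protein genes, were lower by log2 changes of -1.35 and -1.51, with known models at -0.13 and -0.35 (adjusted p = 0.638 and 0.131). YWHAB, a 14-3-3 adaptor protein, was lower by -2.25, and its known models were called lower as well, at -1.03 with an adjusted p of 0.00842. RPS13 fell below the 2-fold limit without HepG2 replicate 2 (log2 change -0.93) or without K562 replicate 2 (-0.99), and RPL5 was lost without GM12878 replicate 2 (adjusted p = 0.0555). ANP32B was lower by -1.18 ± 0.359 (SE, adjusted p = 0.00502), as was the whole gene at -1.54, and was lost without HepG2 replicate 3 (adjusted p = 0.0762).

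**Figure D5:**
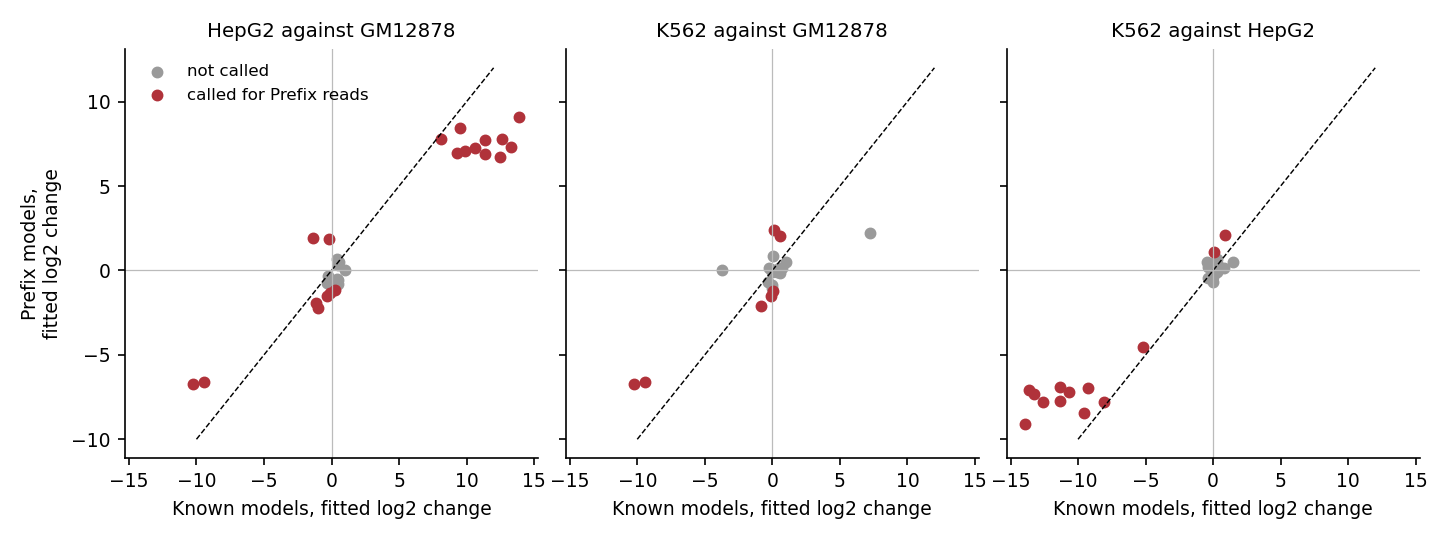
Fitted log2 change of a gene's Prefix reads (vertical axis) against that of its known models (horizontal axis) in 3 comparisons, for the 29 genes with both tested; red points are called for Prefix reads, and the dashed line marks equal changes. HSP90AB1 is the red point at -1.39 and 1.94 in the left panel, and the points far from 0 are genes with no or almost no reads in one of the lines.

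K562 against GM12878 gave 8 calls among the 36 genes, 3 higher and 5 lower in K562, or 22.2% beside a background of 24.8% over all sums tested (12.1% higher and 12.7% lower). Higher were HSP90AB1, with a log2 change of 2.41 ± 0.569 (SE, adjusted p = 0.00101), EEF2, with 2.01 ± 0.548 (SE, adjusted p = 0.00473), and KRT8, an epithelial keratin with 1 and 8 reads in K562 and 0 in GM12878. The known models of HSP90AB1 and EEF2 had log2 changes of 0.09 and 0.57 (adjusted p = 0.928 and 0.114). These 3 calls rest on K562 replicate 2: without it the adjusted p-values were 0.242 for HSP90AB1, 0.384 for EEF2 and 0.317 for KRT8. Lower were RPS19, with -1.25 ± 0.294 (SE, adjusted p = 0.00100), RPS14, YWHAB, IGHM and HLA-DRB1. The last 2 had no Prefix read in K562 and passed the filter through GM12878 alone. The known models of RPS19 had a log2 change of 0.07 and an adjusted p of 0.942. RPS14 and YWHAB were lost without GM12878 replicate 2 or K562 replicate 2, at adjusted p-values of 0.0916 to 0.317. The number of calls was 4 without GM12878 replicate 2, 5 without K562 replicate 2 and 16 without K562 replicate 1.

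K562 against HepG2 gave 16 calls, 3 higher and 13 lower in K562, or 44.4% beside a background of 44.2% (16.1% higher and 28.1% lower). These comparisons share libraries with those above. ANP32B was higher in K562 by a log2 change of 1.63 ± 0.357 (SE, adjusted p = 0.000200), NUDC by 2.08 ± 0.617 (SE, adjusted p = 0.00489) and RPS13 by 1.07 ± 0.306 (SE, adjusted p = 0.00339). NUDC Prefix reads were 11, 9 and 2 in GM12878, 4, 2 and 5 in HepG2, and 17 and 8 in K562, and without K562 replicate 1 the adjusted p was 0.370. RPS13 dropped under the 2-fold limit without HepG2 replicate 2 (log2 change 0.87) or K562 replicate 1 (0.86). Among the 13 lower genes were ALB, A2M, C3, APOH, AFP and DHRS2, the last with 2 Prefix reads in K562 against 128 in HepG2. The filter favours such calls here too: 10 of the 16 called genes had no Prefix read in 1 of the 2 lines, so their calls are no separate support. Without HepG2 replicate 2 the number of calls was 9.

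Usage, the share of a gene's reads that fall in Prefix models, was tested for 20 genes among 2529 sums with edgeR's diffSpliceDGE, and called at an adjusted p under 0.05 with a shift of at least 10 percentage points. No Prefix usage was called in any of the 3 comparisons, beside a background of 0.593% of all sums for HepG2 against GM12878 (0.237% higher, 0.356% lower). The background was 0.198% for K562 against GM12878 (0.0791% higher, 0.119% lower) and 0.0791% for K562 against HepG2, all of it lower. At an unadjusted p under 0.05 there were 8, 3 and 3 genes. RPS13 alone had an adjusted p under 0.05, of 0.0271 in HepG2 against GM12878, with a shift of -7.64 percentage points from 13.9 to 6.22%. Leaving out any of 5 libraries in turn, GM12878 replicates 1, 2 and 3 and HepG2 replicates 2 and 3, ended this at adjusted p-values of 0.0752 to 0.252. NUDC had the widest shift, of -11.6 points from 15.2% in GM12878 to 3.54% in HepG2, with an adjusted p of 0.148. Shifts over the 20 genes ran from -11.6 to 11.6 points in that comparison.

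Genes of the machinery that sets 3′ ends were taken from a list of 27 cleavage and polyadenylation factors, of which 13 had enough reads to test as whole genes. In HepG2 against GM12878 none was called higher and 3 were called lower, beside a background of 49.1% of genes called (28% higher, 21.1% lower). They were PAPOLA, the canonical poly(A) polymerase, with 22, 25 and 8 reads in GM12878 and 20, 8 and 19 in HepG2, FIP1L1, a CPSF subunit that recruits it, with 10, 10 and 5 against 6, 1 and 6, and CPSF6, the large subunit of CFI, with 16, 14 and 8 against 10, 12 and 10. Their log2 changes were -1.24 ± 0.371 (SE, adjusted p = 0.00383), -1.95 ± 0.538 (SE, adjusted p = 0.00174) and -1.24 ± 0.411 (SE, adjusted p = 0.00855) in edgeR's quasi-likelihood test. CPSF6 was lost without GM12878 replicate 1 (adjusted p = 0.0516) or HepG2 replicate 1 (0.107). The list's median log2 change was -0.48, against 0.02 over all genes tested. Without K562 replicate 1 there were 6 calls, 3 in each direction, and without HepG2 replicate 2 there were 5, 2 of them higher.

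In K562 against GM12878 none of the 13 factor genes was called by edgeR or by DESeq2, beside a background of 28.7% (13.9% higher, 14.8% lower), and 3 had an unadjusted p under 0.05 in edgeR. In K562 against HepG2, beside 44.1% (17.4% higher, 26.7% lower), FIP1L1 was higher by 1.59 ± 0.564 (SE, log2, adjusted p = 0.0161) and PABPN1, the nuclear poly(A) tail-binding protein, was lower by a log2 change of -1.17 ± 0.338 (SE, adjusted p = 0.00305). The FIP1L1 call was lost without HepG2 replicate 2 or K562 replicate 2, at adjusted p-values of 0.0714 and 0.0810. All 10 genes of the U1 snRNP and Sm proteins were tested. In HepG2 against GM12878 none was called higher and 4 were called lower, beside a background of 49.1% of genes called (28% higher, 21.1% lower). They were SNRNP70 with a log2 change of -1.54, SNRPD1 with -1.44, SNRPD2 with -1.30 and SNRPF with -1.10. SNRPD2, a core Sm protein, was at 799 ± 40.5 CPM (SD, n = 3) in GM12878, 324 ± 27.5 (SD, n = 3) in HepG2 and 786 ± 28.02 (SD, n = 2) in K562. In K562 against GM12878 edgeR called none of the 10 and gave 1 an unadjusted p under 0.05. SNRNP70, SNRPD1 and SNRPD2 were called higher in K562 than in HepG2 and none was called lower, beside 17.4% of genes higher and 26.7% lower. SNRNP70 had 47 and 23 reads in the K562 libraries, at 174 ± 145 CPM (SD, n = 2). Calls of these U1 and Sm genes were not recomputed with libraries left out. A link between these genes' levels and Prefix reads was not tested.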

How the data were processed

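The submitters' processing notes name minimap2 and the build hg38 for the direct RNA reads of 8 libraries. The TALON version and the settings by which it assigns read ends are not given in the sources used here. The deposited tables hold read counts per transcript model, not normalised, per the file headers, and the model's exon number and length, which are other values of the deposited tables. Samples were grouped by line from the labels. Members and gene lists were chosen with earlier results of these data known.

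Models were laid on GENCODE 29 transcripts (GRCh38). Counts summed by gene and class (known, Prefix, Suffix, other incomplete, new combination, new splice site, genomic) were tested with edgeR 4.0.16 in R 4.3.3 (filterByExpr, TMM factors, robust glmQLFit, diffSpliceDGE for usage) in 1 fit of 8 libraries, two-sided, with Benjamini-Hochberg adjustment over all sums tested. The fits were tested on simulated data with known changes. Per-library measures were compared by exact permutation, adjusted over 12 tests. Wilson intervals (95%) and floors of 3 reads cover counting error only. Library depths were 70374 to 461497 reads. Named genes were the 6 with most Prefix reads per line, the 8 best-read models, up to 4 per direction of the level calls, up to 5 of the usage calls, and up to 4 per list, plus genes chosen after their values were seen (those with a high Prefix share, past their exon border, or with Prefix calls apart from their known models). Chosen after seeing the data were also the measures of exon ends and missing exons with their limits of 2 and 50 bases, the adenine counts, the list shares without their leading genes and the comparison of consecutive models. Alternatives were another normalisation, a replicate block, no filter, DESeq2 1.42.0, other denominators and leaving out each library.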

Additional observations from a re-analysis of the deposited data

How the results depend on the processing

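Of 230 recomputations of the main values, 179 were rated the same. For measures this meant the same direction and side of the threshold. For numbers of calls it meant an equal or similar number, whichever genes were called. Single genes were followed only if called in the main fit for Prefix level or as factor genes, plus the RPS13 usage result. These kept their direction and their side of the threshold in 623 of 669 recomputations. Of the level calls, 15 of 26 for HepG2 against GM12878 had no Prefix read in 1 of the 2 lines. So had 3 of 8 for K562 against GM12878 and 10 of 16 for K562 against HepG2. Such calls could hardly change direction. For Prefix share the joint test over the 3 lines, which does not judge 2 lines alone, passed only without ribosomal protein genes. K562 then exceeded GM12878 by 0.301 percentage points. At equal gene weights that excess turned to -0.0286 points with at least 50 reads per library and to -0.0300 with known and incomplete splice match reads as the denominator. The mean in place of the median length gave 82.2 bases between HepG2 and GM12878, and the joint exact permutation test over the lines gave p = 0.0821. With no filter on low counts the Prefix level calls were 51 for HepG2 against GM12878, 16 for K562 against GM12878 and 50 for K562 against HepG2. A fit of only the 2 lines compared gave 3 for K562 against GM12878. With known and Prefix reads alone, usage calls in HepG2 against GM12878 were 3. Factor genes called in K562 against GM12878 were 1 with RLE size factors, 1 with no filter and 1 in the fit of 2 lines. In K562 against HepG2 they were 4 in the fit of 2 lines and 1 with DESeq2. The cause of these changes was not tested.

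Leaving out 1 library in turn, differences between the highest and lowest line ranged from 0.0913 to 0.205 points (Prefix share), 1.97 to 2.26 points (share of incomplete splice matches), 0.0379 to 0.137 points (equal gene weights), 91 to 103 bases (median length), 0.468 to 0.608 exons, 2.54 to 6.21 points (relative length), 0.947 to 1.41 points (past every candidate), 12.05 to 14.7 points (1 exon missing) and 3.44 to 5.54 points (at an exon end). Fewer assignments exist with 7 libraries, and exact permutation p-values rose to between 0.0571 and 0.114 in some of these for the share of incomplete splice matches, length, exon number, 1 exon missing and exon ends. Against Suffix reads the ranges were -16.8 to -15.6 points, -188 to -156.3 bases and 0.485 to 0.647 exons. Prefix level calls ranged from 18 to 37 for HepG2 against GM12878, 4 to 16 for K562 against GM12878 and 9 to 24 for K562 against HepG2. Usage calls ranged from 0 to 1 in HepG2 against GM12878 and were 0 in the others, and factor gene calls from 3 to 6, 0 to 2 and 1 to 4. Where a K562 library is left out, the other is assumed to vary like the other lines.

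With the replicate number as a block the calls were 26, 8 and 16 for levels, 0 in each for usage and 3, 0 and 2 for factor genes, as without it. Same-numbered libraries of different lines had correlations of -0.0535 to 0.0380, so the numbers do not pair them. Depth limits the class: 36 of 3939 genes with Prefix reads could be tested, and a line with 0 reads of a gene allows 6.82 CPM in GM12878, 3.47 in HepG2 and 6.10 in K562.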

Other observations

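Of 27 cleavage and polyadenylation factor genes, 9 had Prefix reads, 36 of 3563 reads in all. This share of 1.01% is near the 0.875% over all annotated genes. PABPC1, the cytoplasmic poly(A)-binding protein, had 10 of these and SYMPK, the scaffold protein symplekin, had 8. Of the 10 U1 snRNP and Sm protein genes, 8 had Prefix reads, 100 of 5849 (1.71%). SNRPB, which encodes the Sm proteins B and B', had 44 of them, and SNRNP70 had 24. By library the U1 and Sm list had a Prefix share of 1.25, 1.88 and 1.55% in GM12878, 1.45, 1.91 and 1.58% in HepG2, and 2.43 and 1.67% in K562, so the lines overlapped.

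MHC, immunoglobulin and B cell genes had 77 Prefix reads of 10119 in GM12878, from a list of 16 genes of which 11 had Prefix reads in some library. HLA-DRB1 had 7, 13 and 4 of 289, 335 and 144 reads there (3.13%, 95% Wilson interval 2.11 to 4.61), spread over 11 models. AC069061.2, an intergenic noncoding RNA gene on chromosome 17, was read in K562 only, with 8 of 19 and 14 of 25 reads in its single Prefix model. No annotated transcript of this gene has more exons than that 4-exon model, so no missing exon could be shown.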
